A study of Mus musculus with 18 samples.

Results

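The regions described here are 582 islands of H3K9me2 in the mouse genome that were marked in embryonic stem cells (ESC) and in cardiomyocytes derived from them (CM) and that lay apart from the nuclear lamina in both. They were found on a 1 kb grid over chromosomes 1 to 19 (build mm9) from lists of enriched domains. An island is an unbroken stretch of 20 kb or more in the CM and the ESC H3K9me2 lists and in neither Lamin B list, with both edges more than 20 kb from any Lamin B domain. The 4 lists held 5105 domains on these chromosomes, and 973 stretches met all but the last condition. The other 391 stretches, beside the lamina, touched a Lamin B domain in 350 cases and ended within 20 kb of it in 41.

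The study mapped Lamin B and H3K9me2 by ChIP-seq in 18 libraries, with 2 libraries per antibody for wild-type CM on day 10 of differentiation and for wild-type ESC kept in serum-free 2i medium with LIF. A further ESC line, kept on feeder cells in medium with serum, carried CMV-creERT, an inducible Cre, and floxed Hdac3 alleles (Hdac3f/f). It gave 2 Lamin B libraries after 1 µg/ml tamoxifen for 24 h, which deleted Hdac3, and 2 Lamin B and 2 H3K9me2 libraries without tamoxifen. Each of these 4 cell states had 1 input library. The CM lists are each named by 2 wild-type libraries. Wild-type and floxed libraries, 4 in all, point to the list of ESC H3K9me2, and 6 libraries to that of ESC Lamin B, the Hdac3-deleted ones included. ESC may therefore stand for a mixture of genotypes and culture media, and for Lamin B also of cells with and without tamoxifen. The CM came from embryoid bodies, and how many of their cells were cardiomyocytes is not stated. The lists hold no expression values, so neither cell type could be checked against markers.

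H3K9me2 is the dimethylated form of lysine 9 of histone H3. It is written mainly by the methyltransferases G9a and GLP and is typical of repressed chromatin. The lamina, a mesh of lamins under the inner nuclear membrane, holds large gene-poor domains that carry much of this mark. H3K9me2 away from lamins lies in sequence that a lamin map places in the nuclear interior, where most active genes are found. The islands were chosen from the same 4 lists that are described below, and the lists carry no value per library, so the values are descriptions, with no replicate error and no test. Sequencing depth is unknown.

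The islands covered 101.5 Mb, which was 4.25% of the autosomal span and 8.03% of the 1264 Mb outside Lamin B. They made up 66.2% of the sequence with constant H3K9me2 outside Lamin B, but 8.77% of the 1157.5 Mb with constant H3K9me2 anywhere. In CM they held 7.84% of the H3K9me2 sequence, and in ESC 8.35%. Most were short. The median length was 120 kb (quartiles 80 and 200 kb, range 30 to 1190 kb), and 388 of 582 (66.7%) reached 100 kb. The median was 345 kb when domains below their list's median score were dropped. The 28 islands of at least 500 kb held 19.6% of the island sequence.

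Islands were longer than the constant H3K9me2 stretches beside the lamina, whose median was 83 kb and of which 43.0% reached 100 kb. Most stretches beside the lamina are cut off by a Lamin B edge, which islands by their choice are not. H3K9me2 that was present in a single cell type came in shorter pieces under the same minimum distance from Lamin B. CM-only stretches numbered 560 with a median of 50 kb (43.3 Mb), and ESC-only stretches 463 with a median of 80 kb (39.3 Mb). Both are cut where the list of the other cell type begins. The 1082 stretches in all 4 lists had a median of 264.5 kb and reached 18744 kb, so the longest island was far shorter than the longest H3K9me2 block at the lamina.

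**Figure D1:**
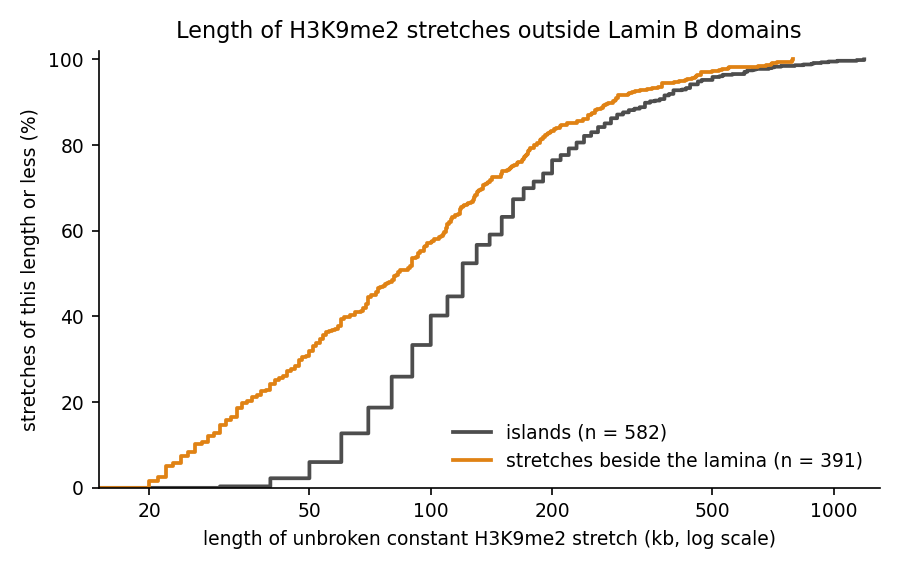
Cumulative share (%) of islands (grey, n = 582) and of constant H3K9me2 stretches beside the lamina (orange, n = 391) by length in kb on a log scale. The island curve lies to the right, with a median of 120 kb against 83 kb, and starts at 30 kb.

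The members nearest to the limits of the rule were few. The shortest islands measured 30 kb (2 islands), and no shorter stretch away from Lamin B existed, so the minimum of 20 kb removed nothing. The islands closest to Lamin B stood 21 kb from it (2 islands), and the nearest stretches left out stood 18 kb from it (3 stretches).

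The longest island was chr12:107790001-108980000 (1190 kb). It filled an ESC domain of equal length inside a CM domain of 1380 kb, and the nearest Lamin B domain was 4839 kb away. The next were chr8:117740001-118880000 (1140 kb) and chr4:55670001-56690000 (1020 kb), which also equalled their ESC domains, inside CM domains of 1280 kb and 1140 kb. Lamin B was 1712 kb and 1286 kb from them. These 3 islands were the ones that exceeded 1 Mb.

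On chromosome 15, islands at chr15:86330001-87300000 (970 kb) and chr15:87470001-88360000 (890 kb) shared a single CM domain of 2140 kb. ESC divided the same sequence into separate domains. The island chr14:58730001-59660000 (930 kb) had the greatest distance to Lamin B of the 10 longest, 5281 kb.

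On chromosome 6 the CM domain was slightly the shorter. The islands chr6:135400001-136280000 (880 kb) and chr6:125620001-126420000 (800 kb) equalled their CM domains, and the ESC domains were 890 kb and 840 kb. The island chr1:73020001-73860000 (840 kb) likewise equalled its CM domain and was 10 kb shorter than its ESC domain of 850 kb. A difference of 10 kb is below the 20 kb grid of the CM edges. The tenth, chr7:144810001-145550000 (740 kb), lay in a CM domain of 1220 kb. None of these 10 had a CM or ESC H3K9me2 domain that reached Lamin B. No annotation of mm9 was used, so the genes in the islands are not given.

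**Figure D2:**
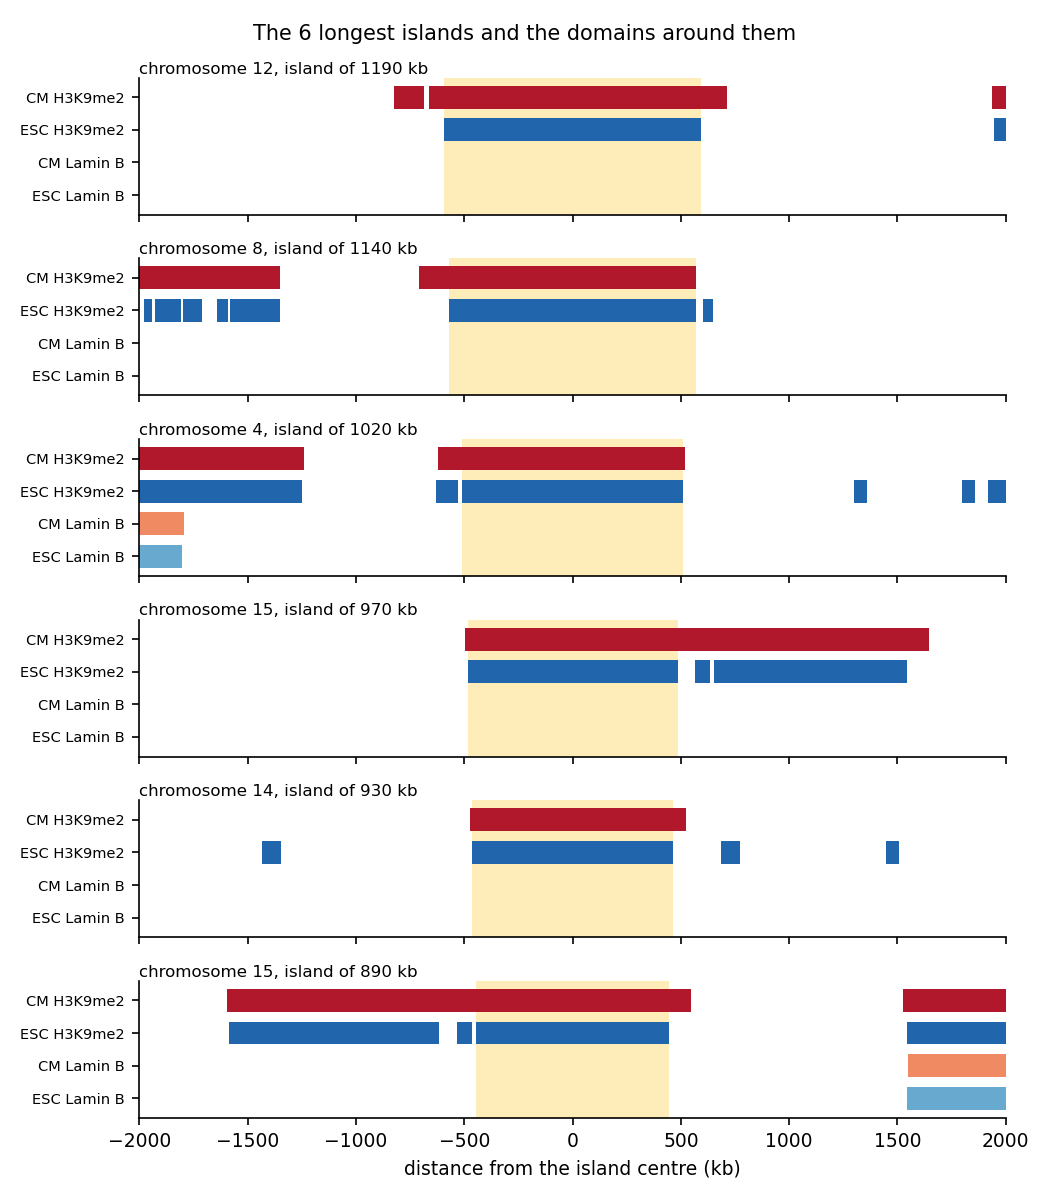
Domains of CM H3K9me2, ESC H3K9me2, CM Lamin B and ESC Lamin B (rows, top to bottom) within 2000 kb of the centre of each of the 6 longest islands (yellow). In each panel the island is covered in both H3K9me2 rows and empty in both Lamin B rows, and in each the CM domain is longer than the ESC domain, for example 1380 kb against 1190 kb on chromosome 12.

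Islands occurred on all 19 autosomes, from 11 on chromosome 19 to 58 on chromosome 1. Relative to the sequence outside Lamin B, they took up most on chromosome 8 (10.9%), chromosome 18 (10.3%), chromosome 4 (10.1%) and chromosome 1 (10.05%). The lowest shares were 4.10% on chromosome 19 and 4.58% on chromosome 16, followed by 6.04% on chromosome 2 and 6.14% on chromosome 11. Chromosome 16 also had the shortest maximum. Its longest island, chr16:29220001-29420000, measured 200 kb, whereas the longest on the other autosomes ran from 330 kb on chromosome 19 to 1190 kb on chromosome 12. Lamin B covered 52.5% of the chromosome 16 span and 36.2% of the chromosome 19 span. The order at the top depended on the domains admitted. With domains scored at or above the 25th percentile or the median of their list, chromosome 18 ranked first, and with ESC Lamin B alone excluding sequence, chromosome 13.

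**Figure D3:**
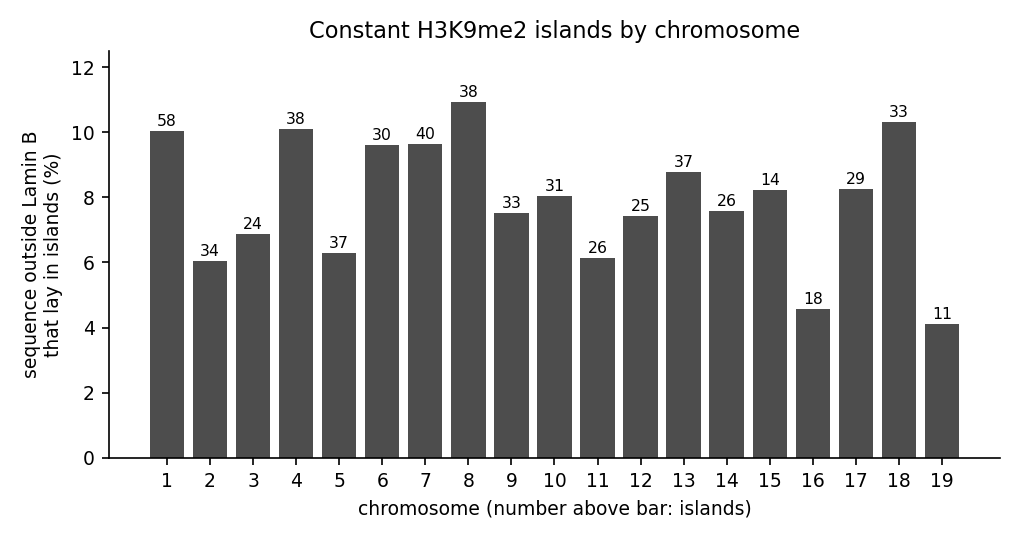
Share (%) of the sequence outside Lamin B domains that lay in islands, by autosome, with the number of islands above each bar. Chromosome 8 has the highest bar at 10.9% and chromosome 19 the lowest at 4.10%.

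In ESC an island was usually a domain of its own, whereas in CM it was usually part of a longer one. Of 582 islands, 68 (11.7%, Wilson 95% interval 9.32 to 14.6) equalled a whole CM domain and 445 (76.5%, 72.8 to 79.7) equalled a whole ESC domain. Wilson intervals here treat islands as independent and cover counting error only. With edges equal within 20 kb the counts were 122 in CM and 546 in ESC. Both edges coincided in both lists for 20 islands, of 80 to 640 kb. Of the 1164 island edges, 153 were set by the CM list alone, 814 by the ESC list alone and 197 by both.

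The CM domain that held an island was longer than the ESC domain for 500 islands, equal for 28 and shorter for 54. The ratio of CM to ESC length had a median of 2.44 (quartiles 1.23 and 6.00). The 427 distinct CM domains had a median length of 300 kb (80 to 8960 kb), and the 580 distinct ESC domains 130 kb (30 to 2950 kb). These medians were below those of all autosomal domains of each list, 460 kb in CM and 140 kb in ESC. In CM, 312 domains held 1 island, 89 held 2 and 26 held 3 to 6. In ESC, 578 domains held 1 island and 2 held 2.

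Domain edges were on a 20 kb grid in the CM list and on a 10 kb grid in the ESC list, and the shortest autosomal domains were 40 kb and 20 kb. The unequal division of the lists and a difference between the cell types cannot be told apart here. When ESC H3K9me2 domains were first merged across gaps under 100 kb, 29.4% of the islands equalled a whole CM domain and 49.3% a whole ESC domain.

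**Figure D4:**
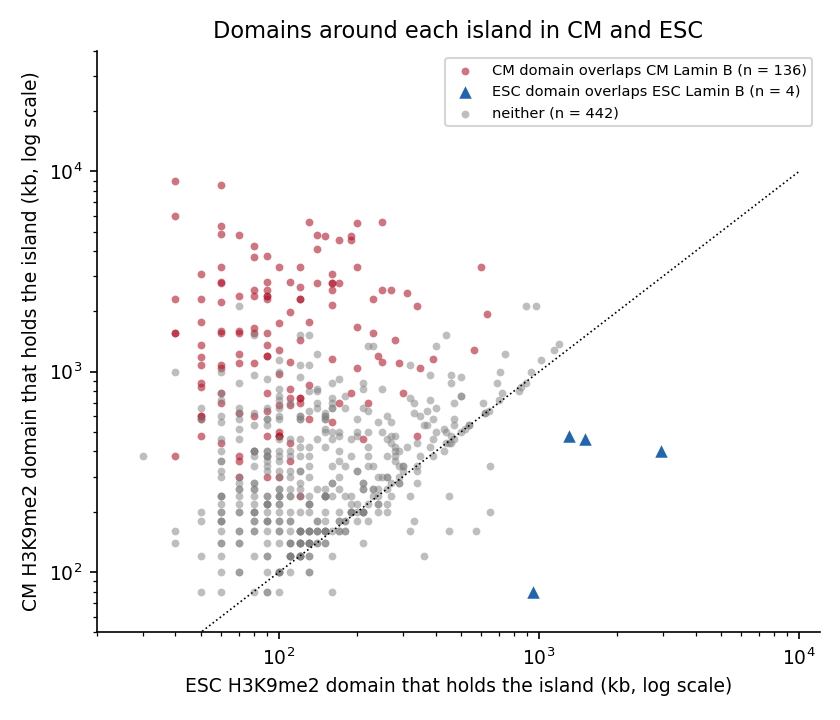
Length in kb (log scales) of the H3K9me2 domain that holds each island, in CM (vertical) and ESC (horizontal), with equal lengths on the dotted line. Red points are islands whose CM domain overlaps CM Lamin B (n = 136), blue triangles those whose ESC domain overlaps ESC Lamin B (n = 4), grey points the other islands, and most points lie above the line.

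Seen from the ESC list, an H3K9me2 domain away from Lamin B was mostly either covered by CM H3K9me2 or without overlap with it. Of the 977 autosomal ESC domains that lay wholly more than 20 kb from Lamin B, 445 were entirely inside CM H3K9me2, 402 had no sequence in it and 130 were partly covered, with a median of 90.9% of their length. The domains with an island were longer. They had a median of 120 kb (quartiles 90 and 210 kb), against 80 kb (62.5 and 100 kb) for the 402 without. By length, 10 of 31 ESC domains under 50 kb held an island, 166 of 418 of 50 to under 100 kb, 237 of 361 of 100 to under 200 kb, and 162 of 167 of 200 kb or more. A missing CM counterpart was most frequent among ESC domains under 100 kb. A longer domain can also overlap another list more easily. The coarser bins of the CM list move with this difference too, and the part of either was not tested.

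CM domains were more often covered in part. Of 378 CM H3K9me2 domains wholly away from Lamin B, 330 (87.3%) held at least 1 island and 48 had no ESC H3K9me2. Here 68 were entirely inside ESC H3K9me2 and 262 were partly covered, with a median of 75.0% of their length. CM domains with an island had a median of 240 kb, against 180 kb for those without. By sequence the lists were close, since 71.0% of CM and 71.9% of ESC sequence in such domains was marked in the other cell type.

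The authors' score per domain, used only to rank domains within a list, placed the holding domains in the lower part of the CM list. Their median rank was at the 35th percentile in CM (35.2) and at the 45th in ESC (44.9). In CM, 142 of 427 holding domains were above the list's median score and 17 were in the top 10%. In ESC, 256 of 580 were above the median and 4 were in the top 10%. Ranks moved with length. Counted per island, so that a shared domain enters more than once, the CM domain was also compared by joins to CM Lamin B, described next. It had a median rank of 76.0% and a median length of 1560 kb for joined islands, against 32.9% and 300 kb for the others. The highest ranked ESC domain with an island, at 96.4%, was the 2950 kb domain around chr15:30680001-31080000. It was followed at 92.4% and 91.8% by those of the long islands on chromosomes 4 and 8.

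Although the islands themselves lay apart from Lamin B, the CM H3K9me2 domain around some of them ran on to the lamina. For 136 islands (23.4%, Wilson interval 20.1 to 27.0) the CM domain overlapped a CM Lamin B domain, and for 4 islands (0.687%, 0.268 to 1.75) the ESC domain overlapped an ESC Lamin B domain. The Wilson intervals again treat islands as independent, although many shared a CM domain. Counted by domain, 91 of 427 CM domains with an island (21.3%) and 4 of 580 ESC domains (0.690%) did so. Over all autosomal H3K9me2 domains the shares were higher, 64% in CM and 46.6% in ESC. The rule itself lowers the island shares, since an island reached by both lists without a break on a side would touch Lamin B. No island was joined to the lamina in both cell types, but with 4 islands joined in ESC few could have been.

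Islands joined to CM Lamin B were shorter at the median and nearer to the lamina than the other islands. They had a median length of 90 kb and a median distance of 112 kb from Lamin B, against 130 kb and 1006 kb for the other 446. Near Lamin B the rule leaves out stretches that run to within 20 kb of it, which can lower the length. The CM domains of the joined islands were long, with a median of 1560 kb against 300 kb, counted per island. Of the islands within 100 kb of Lamin B, 61 of 91 were joined, and the count was 62 of 172 over 100 to 500 kb, 12 of 94 over 500 to 1000 kb, 1 of 103 over 1000 to 2000 kb and 0 of 122 beyond that. A join needs an unbroken CM domain from the island to Lamin B. A short distance, a long CM domain and fewer joins at larger distances therefore follow in part from the definition. The CM H3K9me2 that bridged the gap had a median length of 119 kb (22 to 1253 kb). ESC H3K9me2 covered a median of 39.6% of a bridge (quartiles 5.24% and 70.9%), and 24 of 136 bridges had no ESC H3K9me2. The 136 bridges lay in 91 CM domains and overlapped where islands shared a domain, so a longer bridge can contain other islands, which are ESC H3K9me2 by the rule.

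The 5 islands in the highest scoring CM domains were all of this kind, and these CM domains measured 4820 to 8960 kb. The first, chr6:73330001-73390000, was a 60 kb ESC domain 90 kb from Lamin B, at one end of a CM domain of 8540 kb of which 8195 kb lay in CM Lamin B. The second, chr4:31350001-31390000, was a 40 kb ESC domain 22 kb from Lamin B, in the longest CM holding domain, 8960 kb. Of all islands in CM domains of 800 kb or more, 97 of 142 (68.3%) were joined. Among the 28 islands of 500 kb or more, 3 were joined to CM Lamin B, including chr13:72110001-72740000, which stood 49 kb from CM Lamin B and 2041 kb from ESC Lamin B.

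The difference between CM and ESC in these joins depended on how the lists were merged. With both H3K9me2 lists merged across gaps under 50 kb, 20.2% of islands were joined in CM and 0.475% in ESC, and with the edges of both moved inward to a 20 kb grid, 25.4% and 0.669%. With ESC H3K9me2 domains alone merged across gaps under 50 kb, 15.0% of islands were joined in CM and 2.95% in ESC, and with gaps under 100 kb the share was 8.22% in each. Merging also turns an island that becomes continuous with Lamin B into a stretch beside it, which can remove joined islands by construction.

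The nearest Lamin B domain of either list stood at a median of 629.5 kb from an island (quartiles 165 and 1668 kb). Under the same minimum distance the median was 606.5 kb for CM-only, 496 kb for ESC-only and 304 kb for domain-free stretches. Of 582 islands, 122 were over 2000 kb away. The farthest was chr16:97240001-97380000, at 7733 kb. It was followed by a pair on chromosome 11, chr11:81830001-81990000 and chr11:81460001-81780000, at 7605 kb and 7282 kb. Next were a second island on chromosome 16, chr16:96730001-96860000, at 7223 kb, and chr2:170740001-171060000 at 7008 kb. The islands on chromosome 16 lay in a single CM domain of 800 kb, and those on chromosome 11 in one of 740 kb. Islands nearest to Lamin B were the shortest. The median length was 90 kb within 100 kb of Lamin B, 120 kb over 100 to 500 kb and over 500 to 1000 kb, 150 kb over 1000 to 2000 kb and 130 kb beyond. The rule can lower lengths near Lamin B, since a stretch that runs to within 20 kb of it is left out.

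Lamin B stood nearer to the islands in CM, at a median of 698 kb, than in ESC, at 1009 kb. It was nearer in CM by more than 100 kb for 181 islands (31.1%) and nearer in ESC by more than 100 kb for 49 (8.42%). The same was seen around sequence with no domain at all. Of 824 domain-free stretches away from Lamin B, 32.0% were nearer to CM and 9.10% nearer to ESC Lamin B by that margin. The shift was therefore not shown to be particular to the islands.

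In the first 20 kb outside an edge, 65.1% of the flanks lay in CM H3K9me2 and 12.7% in ESC H3K9me2. By the rule an island ends where either list ends, which lowers coverage next to the edge. The ESC list alone set 814 of the 1164 edges and the CM list alone 153. At 80 to 100 kb the shares were 48.4% in CM and 38.1% in ESC, and at 960 to 980 kb they were 40.4% and 38.2%. The flanks include Lamin B sequence and neighbouring islands, which both H3K9me2 lists cover by the rule. Another island lay within 100 kb of 271 of 582 islands. At 960 to 980 kb Lamin B covered 25.7% of the flanks in CM and 21.9% in ESC. The coverage of the whole autosomal span by H3K9me2 was 54.2% in CM and 50.9% in ESC, above that of the flanks, and the coverage of sequence outside Lamin B was 17.7% in CM and 15.6% in ESC, below it.

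**Figure D5:**
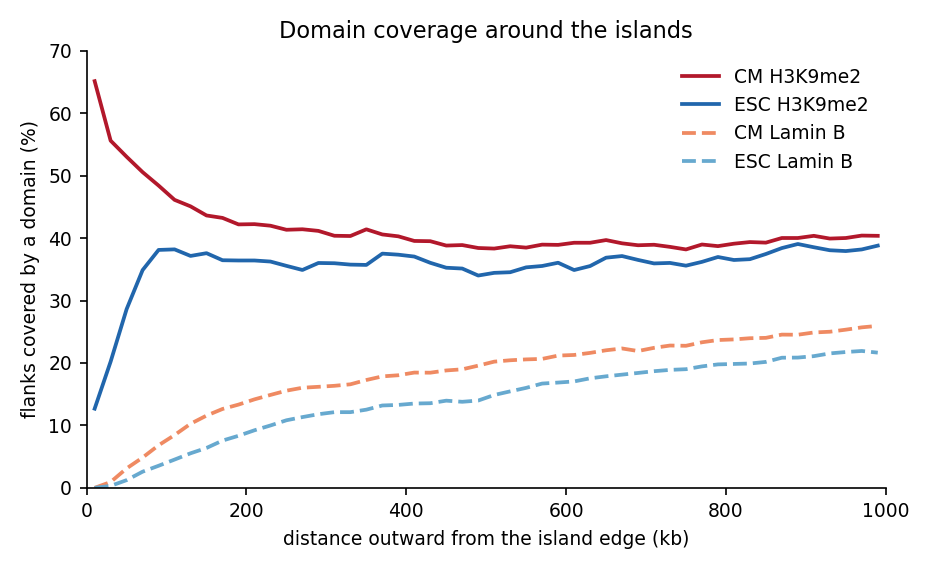
Share (%) of island flanks covered by each list in 20 kb steps outward from the island edge to 1000 kb. CM H3K9me2 starts at 65.1% and ESC H3K9me2 at 12.7%, and the curves approach each other by 100 kb while Lamin B rises from 0% in both.

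Many islands had another island close by. The spacing of other stretches was not compared, so closeness was not shown to be particular to the islands. Another island lay within 100 kb of 271 of 582 islands and within 1000 kb of 405, while 41 had none within 5000 kb. Of the 155 neighbouring pairs at most 100 kb apart, 130 lay in a single CM domain, so most near neighbours shared a CM domain that the ESC list divided. The CM domain with the most islands was chr8:114640001-116960000, 2320 kb with 6 islands that made up 28.0% of it. Domains with 5 islands were chr1:189220001-190780000, chr3:37640001-40420000 and chr12:25940001-29260000. All 4 measured 1560 kb or more and overlapped CM Lamin B, as did 64% of all autosomal CM H3K9me2 domains.

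Gaps between Lamin B domains numbered 821 on the autosomes, and 256 of them (31.2%) held an island. Longer gaps held an island more often, 21 of 395 gaps under 500 kb, 47 of 134 of 500 to under 1000 kb, 55 of 118 of 1000 to under 2000 kb, 72 of 107 of 2000 to under 5000 kb and 61 of 67 of 5000 kb or more. The share of sequence in islands changed less. It was 2.96% in gaps under 500 kb, where the required distance from Lamin B takes away much of the gap, 7.08% in gaps of 500 to under 1000 kb, and 8.06% to 8.58% in the 3 longer classes. The gap with the most islands, chr7:132275001-147488000, held 13 over 15213 kb, and they made up 23.5% of it. Next were chr8:116028001-130592000 and chr13:40326001-49929000 with 10 islands each.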

How the data were processed

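The submitters' processing notes name STAR, Picard and deepTools, without versions, and build mm9 for these ChIP-seq libraries. Domains were deposited as 4 lists with the settings g 10, an automatic bin and an fdr of 5, per the file headers; the caller and how libraries were combined are not stated. The deposited score is the authors' value per domain on a scale that is not given. Domains were placed on a 1 kb grid with Python 3.11.15, numpy 2.4.6 and pandas 2.3.3, and the rule was checked on simulated lists. Chromosome spans reached from the outermost domain start to the outermost end in any list. Wilson intervals came from statsmodels 0.14.6 and figures from matplotlib 3.10.9. The members and all comparisons were chosen with earlier results of these data known. Named regions were the 10 longest islands, the 5 farthest from Lamin B, the 5 with the highest scoring CM and ESC domain and the longest per chromosome, of which some are printed; the CM domains and Lamin B gaps with most islands were named after their values were seen. The gene and sequence tables used another build than mm9, so no gene or sequence content was computed. Separate values of the libraries were not analysed here.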

Additional observations from a re-analysis of the deposited data

Results flagged for a closer look

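The rule covers chromosomes 1 to 19. Applied to X, which was not part of the comparisons, it gave 9 islands, with a median of 90 kb and a total of 0.83 Mb. They made up 1.82% of the 45.7 Mb of X outside Lamin B, below the 8.03% of all autosomes and below each autosome, of which chromosome 19 was lowest at 4.10%. Y gave 0 islands over 1.01 Mb outside Lamin B.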

How the results depend on the processing

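No paired analysis was possible because the lists carry no value per library. For the same reason replicates could not be omitted in turn. Of 15 alternatives, 13 were planned and 2, the merging of ESC domains alone, were added after the data were seen, as were the results on joins to Lamin B. The total stayed between 87.9 and 109.5 Mb, except 152.6 Mb where ESC Lamin B alone excluded sequence. The number was 238 when domains below their list's median score were dropped and 377 with ESC domains merged across gaps under 100 kb, and within 1.5 times 582 otherwise. The median length was 190 kb with domains scored at or above the 25th percentile, 345 kb at or above the median, and 120 to 180 kb otherwise. The median distance to Lamin B was 1157 kb at or above the median score, and 536 to 878 kb otherwise. The score settings removed Lamin B domains too. Islands that were whole ESC domains came to 92.3% with edges moved inward to a 20 kb grid, 93.8% with edges equal within 20 kb, 90.2% with 90% of the domain inside, 69.8% with both H3K9me2 lists merged across gaps under 50 kb, and 65.5% and 49.3% with ESC merged under 50 and 100 kb. Whole CM domains came to 16.0% at a minimum length of 100 kb, 21.0% and 18.0% with looser edges, 16.2% with both lists merged, and 18.6% and 29.4% with ESC merged. CM joins to Lamin B came to 17.0% at 100 kb minimum length, to 27.8%, 19.8% and 15.3% at Lamin B distances above 0, 50 and 100 kb, and to 15.0% and 8.22% with ESC merged; ESC joins were then 2.95% and 8.22%. Joins were not computed where 1 Lamin B list excluded sequence. Merging changes these shares by construction; for the others the cause was not tested. Chromosome 8 ranked first in 10 of 13 alternatives. Gene and GC content were not run. Depth is unknown.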

Other observations

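The 4 islands whose ESC H3K9me2 domain overlapped ESC Lamin B were chr3:29920001-30340000 (420 kb), chr4:10680001-10760000 (80 kb), chr8:91800001-92080000 (280 kb) and chr15:30680001-31080000 (400 kb). They were chosen after their values were seen. Each lay in a CM domain that was shorter than its ESC domain. This follows in part from the rule, since the CM domain had to end before Lamin B where the ESC domain reached it. The CM domains measured 480, 80, 460 and 400 kb, and the ESC domains 1300, 950, 1500 and 2950 kb.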
